A study of Mus musculus with 2 samples.

Results

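Neutrophils that carried a transcript of Siglecf or Csf1 were examined in 2 single-cell RNA libraries of mouse lung, mainly in the library titled injured. A cell was gated as a neutrophil when it held at least 1 UMI (a counted RNA molecule) of Csf3r or Cxcr2, at least 3 UMIs of S100a8 and S100a9 together, and 0 UMIs of C1qa, C1qb, C1qc and Marco. Gated cells with at least 1 UMI of Siglecf or Csf1 are called Siglecf/Csf1 neutrophils here, and the others are called neutrophils with neither. Both sets were chosen by measured values, so the levels of these 10 genes are given as a description only. There were 291 Siglecf/Csf1 neutrophils among the 4688 cells that passed the filters. The injured library held 262 of them among 2346 cells, and the control library held 29 among 2342 cells.

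Both libraries came from C57BL/6 mice carrying the I73T mutation of surfactant protein C (SP-C), a protein made by alveolar type 2 cells, so the control animals carried the mutant allele too. Whole lungs were lavaged and perfused with saline before they were digested with collagenase D and freed of red cells. Tamoxifen, given in this model by gavage at 175 mg/kg, excises a neomycin cassette so that more of the mutant protein is made, and the study set a steady state against 14 days after injury. The treatment tag of the library titled injured reads untreated and that of the library titled control reads tamoxifen treated, which runs against the titles. The groups here follow the titles, and every direction between libraries below rests on that choice. The number and age of the animals are not stated. There was 1 library for each title, so no replicate error exists, no test between conditions or between sets of cells is possible, and all intervals are exact 95% intervals that cover counting error only.

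Neutrophils leave the bone marrow with granules already filled, carry the chemokine receptor CXCR2, and change their transcripts after they enter tissue. Siglec-F, encoded by Siglecf, is an inhibitory sialic acid receptor best known on mouse eosinophils and alveolar macrophages, and neutrophils carrying it have been described in mouse lung tumours, injured kidney and irritated airways. Csf1 encodes macrophage colony-stimulating factor, the growth factor that monocytes and macrophages need through the receptor CSF1R. On the GRCm38 assembly Siglecf lies on chromosome 7 from 43351341 to 43359531 on the plus strand, and Csf1 lies on chromosome 3 from 107741048 to 107760469 on the minus strand.

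The injured library held 22314603 UMIs over 2702 barcodes and the control library 17207816 UMIs over 2674 barcodes. The cells that passed had medians of 3361.5 UMIs in the injured library and 4513.5 in the control library. The libraries shared 1 barcode, which was gated in neither. Within the injured library the compared sets were alike in depth. Siglecf/Csf1 neutrophils had a median of 2173 UMIs, 1083 genes and a mitochondrial share of 1.81%, against 2112 UMIs, 979.5 genes and 1.63% in neutrophils with neither. Siglecf/Csf1 neutrophils held 656023 UMIs in all and neutrophils with neither 558290.

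The neutrophil label held for markers that the gate did not use. Neutrophil markers outside the gate (12 genes, Retnlg, Mmp8 and Il1r2 among them) gave at least 3 UMIs in 244 of 262 Siglecf/Csf1 neutrophils and in 207 of 228 neutrophils with neither. Of the gate genes, S100a8, a subunit of calprotectin, stood at 34013 CPM (a gene's UMIs scaled to the total UMIs of the set) in Siglecf/Csf1 neutrophils of the injured library, against 42526 in neutrophils with neither. The receptor for granulocyte colony-stimulating factor, Csf3r, was at 1681 CPM, against 1879 in neutrophils with neither. Cxcr2 was at 1098, against 1084. The 12 markers outside the gate summed to 7065 CPM in Siglecf/Csf1 neutrophils, against 17985 in neutrophils with neither. In Marco-positive alveolar macrophages of the injured library they summed to 198 CPM, though 71 of 233 of those cells also had at least 3 UMIs.

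Eosinophil markers were near 0, although Siglecf is an eosinophil gene. The 7 eosinophil markers summed to 8 UMIs in the 262 Siglecf/Csf1 neutrophils and to 2 UMIs in the 228 neutrophils with neither. Il5ra, Prg3 and Epx were at 0 in both sets. Of the others, Ccr3 had 1 UMI, Prg2 had 1, Alox15 had 1 and Ear6 had 5 in Siglecf/Csf1 neutrophils, and Ear6 had 2 in neutrophils with neither. The markers of basophils and mast cells summed to 1 UMI in Siglecf/Csf1 neutrophils and to 0 in neutrophils with neither. The highest single cell had 3 UMIs of the eosinophil list.

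Some gated barcodes carried markers of other cell types. Alveolar macrophage markers summed to 343 UMIs in Siglecf/Csf1 neutrophils, of which 132 lay in 1 cell, and to 167 UMIs in neutrophils with neither, of which 54 lay in 1 cell. Dendritic cell markers summed to 339 UMIs in Siglecf/Csf1 neutrophils, against 71 in neutrophils with neither, and B cell markers to 90 UMIs, against 4. Monocyte markers went the other way, with 153 UMIs in Siglecf/Csf1 neutrophils and 225 in neutrophils with neither, as did T and natural killer cell markers, with 19 and 82 UMIs in the same order. At least 3 UMIs of any of 12 such lists were found in 24 Siglecf/Csf1 neutrophils and in 20 neutrophils with neither. The broadly found genes Fn1, Scgb1a1, Cd74 and Apoe were left out of these lists. Leaving these cells out, an alternative chosen after the data were seen, left 238 Siglecf/Csf1 neutrophils with 505825 UMIs and 208 neutrophils with neither with 422198 UMIs. Among those remaining no other list summed to more than 56 UMIs in either set. They are called marker-free cells below, and results are given with and without the others.

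An abundant airway transcript was found in both sets at similar shares, and its source was not tested. Scgb1a1, an airway secretoglobin gene, was found in 55.9% of Siglecf/Csf1 neutrophils and in 51.2% of neutrophils with neither after each cell was thinned to 1000 UMIs.

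Siglecf or Csf1 was found in 53.5% of gated neutrophils in the injured library (262 of 490, interval 48.9 to 58.0%), against 22.8% in the control library (29 of 127, 15.9 to 31.1%). After thinning to 1000 UMIs the share was 43.0% in the injured library (200 of 465, 38.5 to 47.7%, with 25 shallower cells left out) and 9.40% in the control library (11 of 117, 4.79 to 16.2%, with 10 left out). The intervals do not overlap at either depth. They cover counting error only, so the gap between the libraries is a description and not a test between conditions. Among marker-free cells the thinned share was 43.1% in the injured library and 8.79% in the control library.

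Cell types that should lack both genes set the background for these shares. B cells had a UMI of either gene in 4.29% of 70 cells in the injured library, at a median of 3647.5 UMIs, and in 2.84% of 317 cells in the control library, at a median of 4550. Thinned, this was 0 of 70 B cells in the injured library, which allows up to 4.29% when 3 cells are taken as the limit and has an exact upper bound of 5.13%, and 1.59% in the control library. T cells had 2.11% in the injured library and 1.53% in the control library before thinning. The thinned neutrophil share of the injured library lay above this background by more than the width of the intervals. That of the control library rested on 11 cells, and its lower bound of 4.79% stood above the 1.59% of control B cells. These intervals too cover counting error only, so the gaps are a description and not a test.

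**Figure D1:**
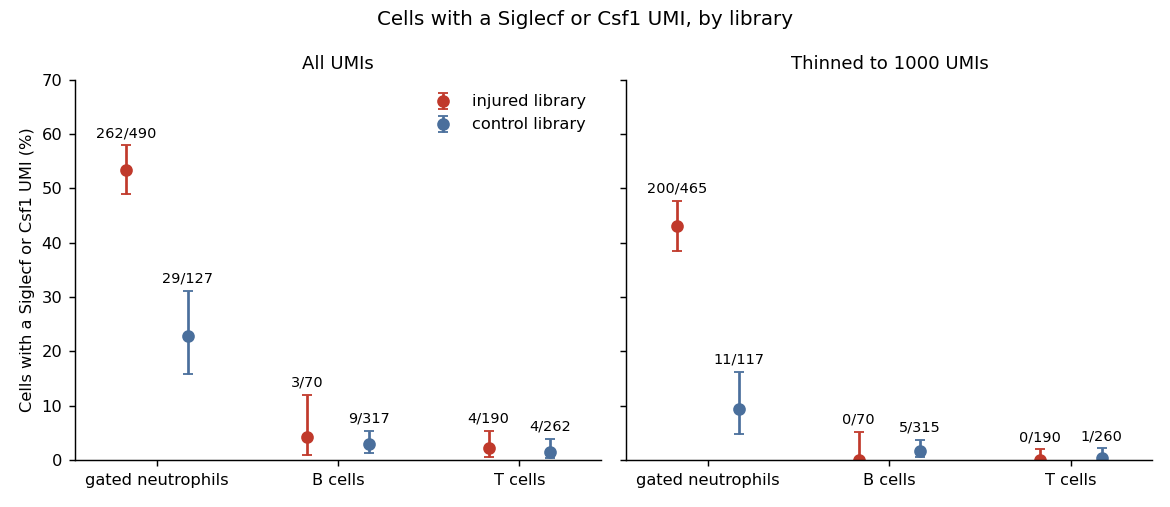
Percent of gated neutrophils, B cells and T cells with at least 1 UMI of Siglecf or Csf1 in the injured and control libraries, at full depth on the left and after thinning each cell to 1000 UMIs on the right; points are shares, bars exact 95% binomial intervals, and labels give cells with a UMI of cells in all. Neutrophils stood at 53.5% in the injured library and 22.8% in the control library at full depth, and at 43.0% and 9.40% in the same order after thinning, while B and T cells stayed under 5%.

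Csf1 was the more frequent of the pair. It was found in 45.1% of gated neutrophils in the injured library, against 16.5% in the control library, or in 33.5% and 6.84% in the same order after thinning. Siglecf was found in 25.3% of gated neutrophils in the injured library and in 6.30% in the control library, or in 15.7% and 2.56% after thinning. In the injured library 41 cells had Siglecf only, 138 had Csf1 only and 83 had both. In the control library 8 had Siglecf only, 21 had Csf1 only and none had both.

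Within the injured library the pair went together. Csf1 was found in 66.9% of gated neutrophils with Siglecf and in 37.7% of those without. These shares are given at full depth only, over all gated cells. Siglecf/Csf1 neutrophils ran from 547 to 30538 UMIs, and the part that depth plays was not tested. Most Siglecf calls rested on 1 UMI (78 of 124 cells), and the highest cell had 5. Csf1 had at least 5 UMIs in 48 cells and reached 39 in 1 cell.

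The set has soft edges. Of the 262 Siglecf/Csf1 neutrophils, 92 had exactly 1 UMI of the pair and 170 had more. At the calprotectin limit, 6 gated cells had exactly 3 UMIs of S100a8 and S100a9, and 10 further barcodes missed the gate with 2 UMIs. The requirement for no C1q or Marco UMI removed 152 barcodes of 642 in the injured library, 76 of which carried Siglecf or Csf1. Siglecf was also found in Marco-positive alveolar macrophages, in 20.6% of cells in the injured library, against 56.2% in the control library.

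In the comparison of Siglecf/Csf1 neutrophils with neutrophils with neither in the injured library, 3652 genes had at least 50 UMIs over both sets. A gene was called when it differed at least 2-fold after 10 CPM were added to each side. By this rule 120 genes (3.29%) were higher and 68 (1.86%) were lower in Siglecf/Csf1 neutrophils. The median log2 ratio of all measured genes was 0.18, and scaling by edgeR's TMM factors moved every log2 ratio by -0.20. This turned the split of calls from 63.8% higher to 34.8% higher, with 63 genes higher and 118 lower. Log2 ratios near 0 therefore carry no direction.

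Part of these calls rested on barcodes with markers of other cells. Among marker-free cells 2914 genes were measured, of which 126 (4.32%) were higher and 72 (2.47%) were lower in Siglecf/Csf1 neutrophils. The 2 versions shared 64 higher and 58 lower genes. Of the 120 higher genes, 14 had over 50% of their UMIs among Siglecf/Csf1 neutrophils in 1 cell. Ccl22, a dendritic cell chemokine, had 231 of its 234 UMIs in 1 cell, Ccl17 had 153 of 155, and Fscn1, the actin bundler fascin, had all 92. The protease gene Ctsk had 182 of 232 UMIs in 1 cell and was lower in marker-free Siglecf/Csf1 neutrophils, with 3 UMIs against 15 in neutrophils with neither. Hist1h2ap, Ccr7 and Cxcl16 had most of their UMIs in 1 cell as well. Cd74 and H2-Aa stood at 762 and 197 CPM in Siglecf/Csf1 neutrophils and at 125 and 48.4 in neutrophils with neither. In marker-free cells Cd74 stood at 156 CPM in Siglecf/Csf1 neutrophils, against 114 in neutrophils with neither. Ccr2, low among all Siglecf/Csf1 neutrophils, came to 3 UMIs in marker-free Siglecf/Csf1 neutrophils and to 2 UMIs in marker-free neutrophils with neither. H2-Aa, Ccr7 and Ccr2 are on the lists by which cells were removed, so their change was partly set by that step.

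**Figure D2:**
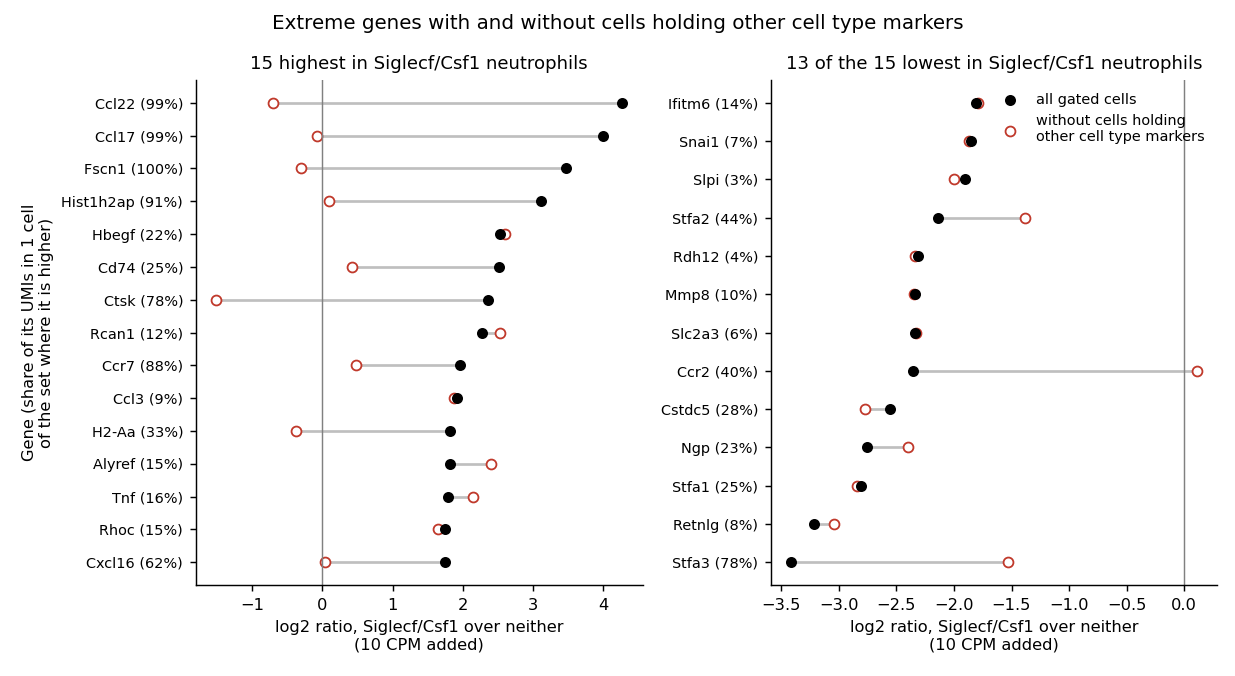
The 15 highest and 13 of the 15 lowest genes of Siglecf/Csf1 neutrophils against neutrophils with neither in the injured library; the horizontal axis is the log2 ratio with 10 CPM added, filled points are all gated cells, open points are cells without markers of other cell types, and the percentage is the share of the gene's UMIs that lay in 1 cell of the set where it is higher. Ccl22, Ccl17, Fscn1, Ctsk, H2-Aa and Ccr2 crossed 0 when those cells were left out, while Hbegf, Rcan1, Ccl3, Alyref, Tnf and Rhoc stayed high and Retnlg, Ngp, Slc2a3, Mmp8 and Slpi stayed low. H2-Aa and Ccr2 are on the lists by which cells were removed, so their change was partly set by that step.

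Genes of recently recruited neutrophils and their granules were among the lowest. Retnlg, which encodes a resistin-like protein of mouse neutrophils, was at 863 CPM in Siglecf/Csf1 neutrophils, against 8119 in neutrophils with neither, a 9.41-fold difference (8.62 to 10.3). It was found in 45 of 262 Siglecf/Csf1 neutrophils and in 121 of 228 neutrophils with neither. Most Siglecf/Csf1 neutrophils therefore had no Retnlg UMI, while most of the others had one. Mmp8, the neutrophil collagenase, was at 105 CPM in Siglecf/Csf1 neutrophils, against 571 in neutrophils with neither (5.43-fold lower, 4.18 to 7.15). Ngp, a granule protein of maturing neutrophils, had 20 UMIs in 9 Siglecf/Csf1 neutrophils and 147 UMIs in 36 neutrophils with neither.

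The list of recently recruited neutrophil genes held 18 genes, 16 of them measured. In Siglecf/Csf1 neutrophils 0 were at least 2-fold higher and 7 were lower, among them Retnlg, Mmp8, Lcn2, Wfdc21, Ifitm6 and Stfa2l1, with a median log2 ratio of -0.86 against 0.18 over all genes. Marker-free cells gave the same counts and a median of -0.80. Of 6 measured granule protein genes 3 were lower (Ngp, Lcn2 and Mmp8) and none was higher. For both lists the background was 3.29% of all measured genes higher and 1.86% lower, or 4.32% and 2.47% in marker-free cells. The share of all UMIs taken by S100a8 and S100a9 was 5.91% in Siglecf/Csf1 neutrophils and 8.08% in neutrophils with neither.

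Further genes were low in Siglecf/Csf1 neutrophils. Slpi, a secreted protease inhibitor, was at 439 CPM in Siglecf/Csf1 neutrophils, against 1673 in neutrophils with neither (3.81-fold lower, 3.34 to 4.36). Slc2a3, a glucose transporter, was at 56.4, against 326 (5.78-fold lower, 4.04 to 8.47), and the retinol dehydrogenase gene Rdh12 at 73.2, against 403. Snai1, which encodes a zinc-finger repressor, was at 27.4 CPM in Siglecf/Csf1 neutrophils and at 125 in neutrophils with neither. The glycerol kinase gene Gk, the nuclear envelope gene Syne1 and the G protein subunit gene Gng2 were 4.50-, 3.39- and 3.53-fold lower in Siglecf/Csf1 neutrophils. The stefin genes Stfa1 and Cstdc5 were 7.61- and 7.05-fold lower, but they are near-identical copies whose reads can be split between them, and Stfa3 had 0 UMIs in Siglecf/Csf1 neutrophils and 54 in neutrophils with neither, 42 of them in 1 cell. Wfdc17, a secreted regulator of phagocyte activation, was 2.57-fold lower. G0s2, an inhibitor of lipolysis, was 2.79-fold lower.

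Among secreted signals, Siglecf/Csf1 neutrophils had more of Ccl3, Tnf, Hbegf and Il1rn. Ccl3, which encodes the chemokine MIP-1α, was at 279 CPM in Siglecf/Csf1 neutrophils, against 66.3 in neutrophils with neither (4.21-fold higher, 2.94 to 6.17), and was found in 56 and 19 cells in the same order. Tnf was at 186, against 46.6 (3.99-fold higher, 2.60 to 6.36), in 47 and 15 cells. Hbegf, a ligand of the epidermal growth factor receptor, was at 99.1, against 8.96 (11.1-fold higher, 4.51 to 35.2), and lay in only 27 Siglecf/Csf1 neutrophils and in 4 of the others. All of these held in marker-free cells, where Ccl3 was 3.97-fold, Tnf 5.24-fold and Hbegf 10.3-fold higher. Il1rn, which encodes the interleukin 1 receptor antagonist, was at 538 CPM in Siglecf/Csf1 neutrophils, against 231 in neutrophils with neither (2.33-fold higher, 1.90 to 2.87).

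The most abundant cytokine transcripts did not follow that pattern. Il1b, the interleukin 1β gene, was at 8666 CPM in Siglecf/Csf1 neutrophils, against 11415 in neutrophils with neither. Cxcl2, a ligand of CXCR2, was at 3674, against 7036 (1.92-fold lower, 1.82 to 2.02). Ccl6, a CC chemokine of myeloid cells, was at 608, against 1890 (3.11-fold lower, 2.77 to 3.50), and 4.21-fold lower in marker-free cells. Of 14 measured genes of the cytokine and chemokine list 4 were higher (Il1rn, Tnf, Ccl3 and Cxcl16) and 1 was lower (Ccl6), and in marker-free cells, where Cxcl16 was not called, 3 of 11 were higher. Over all measured genes 3.29% were higher and 1.86% lower, and in marker-free cells 4.32% were higher.

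Receptors and surface proteins showed a mixed pattern. Clec4n, which encodes the fungal mannan receptor Dectin-2, was at 913 CPM in Siglecf/Csf1 neutrophils, against 297 in neutrophils with neither (3.07-fold higher, 2.58 to 3.67). After thinning to 1000 UMIs it was found in 48.0% of Siglecf/Csf1 neutrophils and in 18.0% of neutrophils with neither, so the difference was spread over many cells. Cd274, which encodes PD-L1, was at 93.0, against 28.7 (3.24-fold higher, 1.85 to 6.03), Havcr2, which encodes TIM-3, was 2.77-fold higher, and Olr1, which encodes the scavenger receptor LOX-1, was 2.25-fold higher. Cxcr4, the receptor that returns aged neutrophils to marrow, was at 851 CPM in Siglecf/Csf1 neutrophils, against 588 in neutrophils with neither (1.45-fold higher, 1.26 to 1.66). Icam1, an adhesion molecule that marks activated neutrophils, was 1.76-fold higher (1.29 to 2.40). Of 18 measured genes of migration receptors and adhesion none was at least 2-fold higher in all gated cells or in marker-free cells, and Itga4 was 2.82-fold lower in marker-free cells. Fcgr2b, which encodes the inhibitory receptor for immunoglobulin G, was 1.95-fold higher, and 2.53-fold higher in marker-free cells.

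A list of genes that have been tied to Siglec-F neutrophils of mouse lung tumours had 16 of 17 genes measured. Of these 5 were higher in Siglecf/Csf1 neutrophils (Ccl3, Cd274, Havcr2, Tnf and Ltc4s) and 0 were lower, with a median log2 ratio of 0.57. Over all measured genes 3.29% were higher, and the median was 0.18. In marker-free cells Fcgr2b and Clec5a joined these 5, which made 7 of 15, with a median of 0.79. Over all genes measured there 4.32% were higher, and the median was 0.19. Ltc4s encodes leukotriene C4 synthase and was at 259 CPM in Siglecf/Csf1 neutrophils, against 108 in neutrophils with neither (2.41-fold higher, 1.79 to 3.29). Vegfa, the angiogenic factor of the same list, was at 64.0, against 80.6, and its interval of 0.808 to 1.96 for the fold by which it was lower includes 1. Xbp1, a transcription factor of the secretory pathway, was at 633, against 469 (1.35-fold higher, 1.15 to 1.58).

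Of 16 measured genes of survival and apoptosis 4 were higher in Siglecf/Csf1 neutrophils and 0 were lower, with a median log2 ratio of 0.33 against 0.18 over all genes. The background for this list and the NF-kB feedback list was 3.29% of all measured genes higher and 1.86% lower. The 4 were Cdkn1a and the near-identical copies Bcl2a1a, Bcl2a1b and Bcl2a1d, and 6 of the 16 lay below 0. Bcl2a1b, which encodes an A1 protein that opposes apoptosis, was at 776 CPM in Siglecf/Csf1 neutrophils, against 340 in neutrophils with neither (2.28-fold higher, 1.93 to 2.71). Bcl2a1a and Bcl2a1d were 2.35- and 2.11-fold higher, and reads of these copies cannot be told apart with certainty. Cdkn1a, which encodes the cell cycle inhibitor p21, was at 1218 CPM in Siglecf/Csf1 neutrophils, against 597 in neutrophils with neither (2.04-fold higher, 1.79 to 2.33). Traf1, an adaptor of TNF receptors, was 2.26-fold higher and was the only higher gene of 13 measured in the NF-kB feedback list, while Nfkbiz was the only lower one.

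Few genes of the secretory pathway and none of the lysosome list were called higher. Of 11 measured genes of the unfolded protein response 2 were higher in Siglecf/Csf1 neutrophils, the endoplasmic reticulum chaperone genes Hsp90b1 and Dnajb9. None was lower, and the median log2 ratio was 0.42 against 0.18 over all genes. In marker-free cells Hsp90b1 alone was called among 10 measured genes, and the median was 0.50 against 0.19. The background for this list and the lysosome list was 3.29% of all measured genes higher and 1.86% lower, or 4.32% and 2.47% in marker-free cells. Hsp90b1 was at 192 CPM in Siglecf/Csf1 neutrophils, against 84.2 in neutrophils with neither (2.28-fold higher, 1.62 to 3.26), and was 3.08-fold higher in marker-free cells. Of 24 measured lysosome genes 0 were higher and 2 were lower (Ctss and Gpnmb), with a median of 0.31 against 0.18 over all genes. In marker-free cells 0 of 21 were called in either direction, and the median was 0.55 against 0.19 over all genes measured there. Atp6v0c, a subunit of the proton pump, was at 1468 CPM in Siglecf/Csf1 neutrophils, against 759 in neutrophils with neither (1.93-fold higher, 1.72 to 2.17).

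Over all measured genes 3.29% were higher and 1.86% lower, with a median log2 ratio of 0.18, which is the background for the following lists. In marker-free cells this background was 4.32% higher and 2.47% lower, with a median of 0.19. The immune regulation list had 3 of 12 measured genes higher in Siglecf/Csf1 neutrophils (Cd274, Olr1 and the decoy receptor gene Tnfrsf23) and 1 lower (Wfdc17), with a median log2 ratio of -0.16. In marker-free cells 2 of 10 were higher (Cd274 and Olr1) and 1 was lower (Wfdc17), and the median was 0.23. In the hypoxia and glycolysis list 3 of 19 genes were lower in Siglecf/Csf1 neutrophils (Slc2a3, Slc16a3 and Gpi1) and 0 were higher. Gpi1 was not called in marker-free cells, where 2 of 16 were lower. No gene of 16 in the oxidase and antioxidant list, of 11 immediate early and heat shock genes, of 10 MHC class I genes or of 3 interferon response genes was called in all gated cells. In marker-free cells Sod2, the mitochondrial superoxide dismutase gene, passed the limit at 2.56-fold higher, with Slc7a11 and Ifitm3 lower. Among 13 measured genes of growth factor receptors and signals Cish alone was called. It encodes a feedback inhibitor of STAT5 signals and was at 245 CPM in Siglecf/Csf1 neutrophils, against 89.6 in neutrophils with neither (2.74-fold higher, 1.98 to 3.84). The eicosanoid list had Ltc4s and the cyclooxygenase gene Ptgs1 higher among 7 measured genes, and the list of Siglec and lectin receptors had Clec4n higher among 10. In marker-free cells Ltc4s alone was called among 6 eicosanoid genes, and Clec4n and Clec5a were higher among 9 Siglec and lectin receptor genes.

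**Figure D3:**
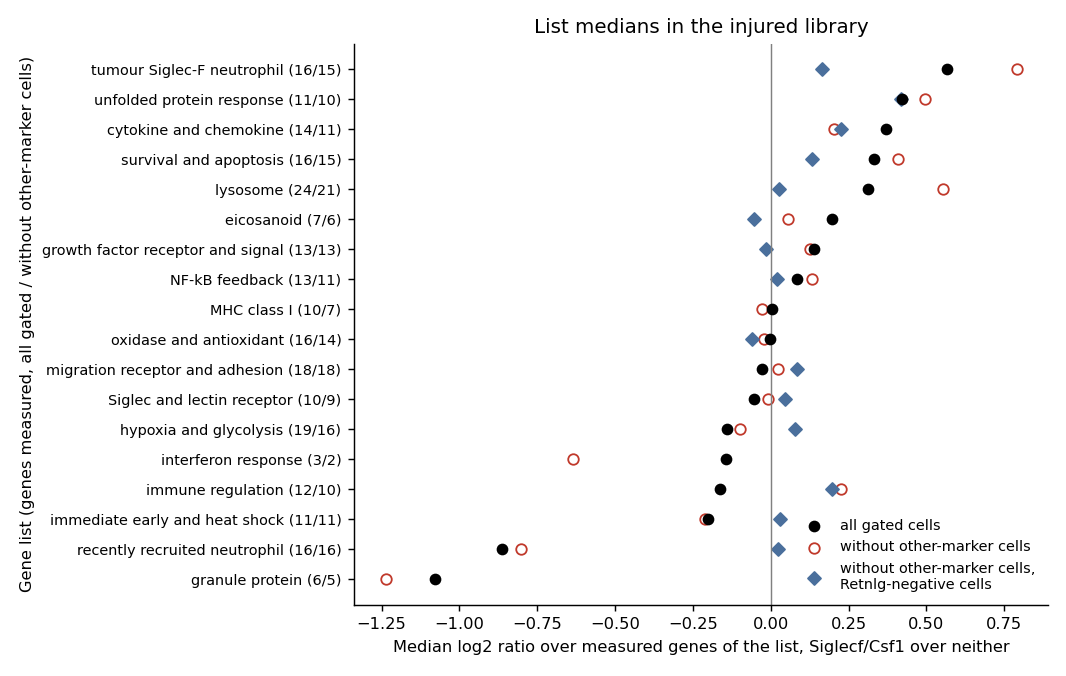
Median log2 ratio of Siglecf/Csf1 neutrophils over neutrophils with neither in the injured library for 18 gene lists; filled points are all gated cells, open points are cells without markers of other cell types, and diamonds are the Retnlg-negative cells among the latter for lists with at least 5 measured genes, with the number of measured genes in brackets. The granule protein and recently recruited lists lay lowest, at -1.08 and -0.86 in all gated cells, and the tumour Siglec-F neutrophil list highest at 0.57, while in Retnlg-negative cells the recently recruited list lay at 0.02.

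Further genes with high ratios were found in a minority of Siglecf/Csf1 neutrophils and in few of the others. Alyref, an mRNA export adaptor gene, was found in 64 Siglecf/Csf1 neutrophils and in 12 neutrophils with neither (4.36-fold higher, 2.57 to 7.81), and was 7.87-fold higher in marker-free cells. Rcan1, which encodes a calcineurin inhibitor, lay in 25 Siglecf/Csf1 neutrophils and in 4 of the others (10.2-fold higher, 3.74 to 39.0). Rhoc, a small GTPase gene, lay in 40 and 8 cells in the same order. Named from marker-free cells, the E-cadherin gene Cdh1 was 5.22-fold higher (2.45 to 12.7) in Siglecf/Csf1 neutrophils, Krtcap2 6.92-fold, Anp32b 3.61-fold, Pmf1 4.26-fold, Matk 5.11-fold and the coagulation factor gene F10 4.06-fold. The highest gene of that version, Saa3, had 67 of its 73 UMIs in 1 cell.

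The classes within the set were compared among marker-free cells. There were 74 cells with both transcripts, 39 with Siglecf only and 125 with Csf1 only. Against the 208 neutrophils with neither, cells with both had 142 (7.41%) of 1916 measured genes higher and 133 (6.94%) lower. Cells with Siglecf only had 72 (4.39%) of 1641 higher and 129 (7.86%) lower, and cells with Csf1 only had 56 (2.6%) of 2154 higher and 54 (2.51%) lower. The classes differ in cell number and in the genes they can measure, so these counts describe each class and are not ranked.

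Retnlg was at 416 CPM in cells with both, 1295 in cells with Siglecf only, 1513 in cells with Csf1 only and 9285 in neutrophils with neither, and 95 of the 110 Retnlg UMIs of cells with Siglecf only lay in 1 cell. Clec4n was at 1279, 777, 768 and 329 in the same order, and Ccl3 at 543, 271, 247 and 87.6. Cells with both thus stood at the far end for each of these genes, 22.3-fold lower than neutrophils with neither for Retnlg (17.6 to 28.7), 3.89-fold higher for Clec4n (3.12 to 4.85) and 6.20-fold higher for Ccl3 (4.18 to 9.35). Slpi was 10.4-fold lower and Mmp8 12.5-fold lower in cells with both than in neutrophils with neither. Tnf did not follow that order, with 157 CPM in cells with both, 247 in cells with Siglecf only, 259 in cells with Csf1 only and 42.6 in neutrophils with neither, and 19 of the 21 Tnf UMIs of cells with Siglecf only lay in 1 cell.

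**Figure D4:**
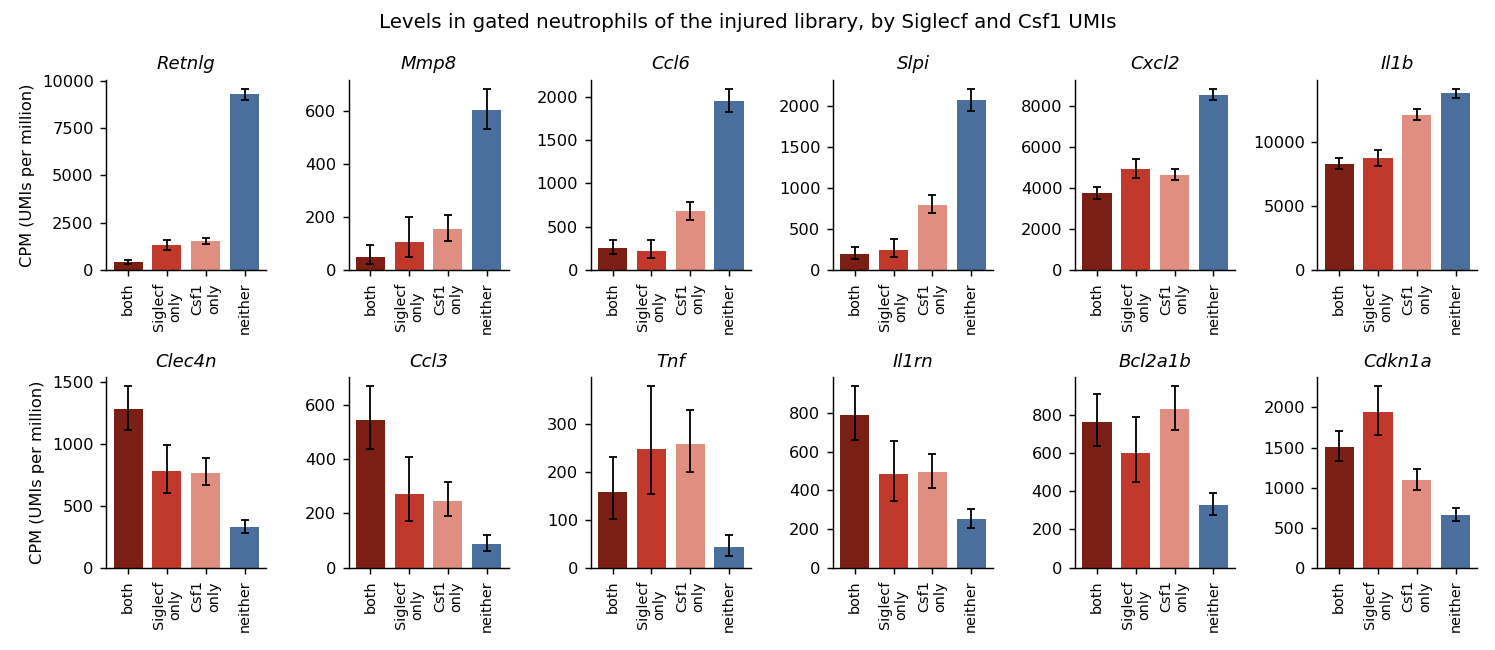
CPM of 12 genes in marker-free gated neutrophils of the injured library, split into 74 cells with both Siglecf and Csf1, 39 with Siglecf only, 125 with Csf1 only and 208 with neither; bars are levels and lines exact 95% Poisson intervals. Retnlg, Mmp8, Ccl6, Slpi, Cxcl2 and Il1b were highest in cells with neither, and Clec4n, Ccl3 and Il1rn were highest in cells with both.

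Between cells with Siglecf only and cells with Csf1 only, more genes were called lower than higher in the former. The 39 cells with Siglecf only held 84960 UMIs, against 255119 in the 125 cells with Csf1 only. Levels in the smaller class thus rest on fewer counts, and the part this plays in the calls was not tested. Of 1191 genes measured over both, 14 (1.18%) were at least 2-fold higher and 42 (3.53%) at least 2-fold lower in cells with Siglecf only. Cdkn1a was at 1942 CPM in cells with Siglecf only, against 1090 in cells with Csf1 only (1.78-fold higher, 1.46 to 2.17). Slpi was 3.22-fold lower in cells with Siglecf only (2.05 to 5.31), Ccl6 3.03-fold lower (1.88 to 5.16), Wfdc17 2.66-fold lower (1.93 to 3.77), Havcr2 3.16-fold lower (1.37 to 8.98) and Icam1 2.75-fold lower (1.32 to 6.63). For Clec4n, Ccl3, Tnf and Il1rn the interval of the ratio included 1. For Clec4n the cells with Siglecf only were 1.01-fold higher, with an interval of 0.753 to 1.34.

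Cells that just met the limit lay between the others. In marker-free cells with exactly 1 UMI of the pair Retnlg was at 2620 CPM, against 334 in cells with at least 2 UMIs and 9285 in neutrophils with neither. Clec4n was at 508 in cells with 1 UMI, 1161 in cells with at least 2 and 329 in neutrophils with neither, and Ccl3 at 237, 406 and 87.6 in the same order. Cells with at least 2 UMIs had 149 (6.1%) of 2441 measured genes higher and 109 (4.47%) lower than neutrophils with neither, and cells with 1 UMI had 25 (1.32%) of 1894 higher and 35 (1.85%) lower.

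Retnlg divided the gated neutrophils of the injured library in another way. Among marker-free cells it was found in 18.5% of Siglecf/Csf1 neutrophils (44 of 238, 13.8 to 24.0%) and in 54.3% of neutrophils with neither (113 of 208, 47.3 to 61.2%). Read the other way, 28.0% of Retnlg-positive cells (44 of 157) and 67.1% of Retnlg-negative cells (194 of 289) carried Siglecf or Csf1. The 113 Retnlg-positive neutrophils with neither had 15266 CPM of Retnlg, against 6078 in the 44 Retnlg-positive Siglecf/Csf1 neutrophils.

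Among Retnlg-negative cells most of the differences above were small. The comparison of 194 Siglecf/Csf1 neutrophils with 95 neutrophils with neither had 36 (1.7%) of 2114 genes higher and 7 (0.331%) lower. Of 104 genes measured there and called higher in marker-free cells as a whole, 22 were still called higher, and of 25 called lower 2 were. The recently recruited list had 0 of 12 genes called and a median log2 ratio of 0.02, and the lysosome list had 0 of 19 called and a median of 0.03. The unfolded protein response list had 0 of 7 called, but its median stayed at 0.42, against 0.01 over all genes measured there. Ltc4s was at 286 CPM in Retnlg-negative Siglecf/Csf1 neutrophils, against 290 in Retnlg-negative neutrophils with neither, Bcl2a1b at 797, against 725, and Slpi at 191, against 169. The intervals of these ratios included 1.

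A smaller group of genes differed among Retnlg-negative cells as well. Tnf was at 257 CPM in Retnlg-negative Siglecf/Csf1 neutrophils, against 66.5 in Retnlg-negative neutrophils with neither (3.86-fold higher, 2.07 to 7.97). Hbegf was at 133, against 18.1 (7.35-fold higher, 2.39 to 36.7), with 3 UMIs behind the lower level. Rcan1 was 8.61-fold higher (2.24 to 73.4), Alyref 8.15-fold higher (2.66 to 40.6) and Cd274 3.21-fold higher (1.14 to 12.5). Ccl3 was 1.94-fold higher (1.34 to 2.90), Clec4n 1.54-fold higher (1.25 to 1.91) and Cdkn1a 1.29-fold higher (1.10 to 1.52), all of them by less than among cells of any Retnlg level. Syne1 was 3.21-fold lower (1.51 to 6.97) and Ccl6 2.15-fold lower (1.60 to 2.89).

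Among Retnlg-positive cells Bcl2a1b, Il1rn and Clec4n were higher and Cxcl2 and Mmp8 lower in Siglecf/Csf1 neutrophils. The comparison of 44 Siglecf/Csf1 neutrophils with 113 neutrophils with neither had 37 (3.48%) of 1063 genes higher and 31 (2.92%) lower. Bcl2a1b was at 635 CPM in Retnlg-positive Siglecf/Csf1 neutrophils, against 74.0 in Retnlg-positive neutrophils with neither (8.58-fold higher, 5.04 to 15.2). Il1rn was at 420, against 121 (3.48-fold higher, 2.11 to 5.76), and Clec4n at 258, against 85.7 (3.01-fold higher, 1.62 to 5.64). Cxcl2 was 2.44-fold lower (2.20 to 2.70) and Mmp8 2.15-fold lower (1.54 to 3.05). Tnf was 2.76-fold higher with an interval of 0.827 to 9.23. Ccl3, Ltc4s and Havcr2 were higher too, but rested on 3, 3 and 2 UMIs in Retnlg-positive neutrophils with neither. For Bcl2a1b the interval among Retnlg-negative cells, 0.889 to 1.37, did not meet that among Retnlg-positive cells.

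**Figure D5:**
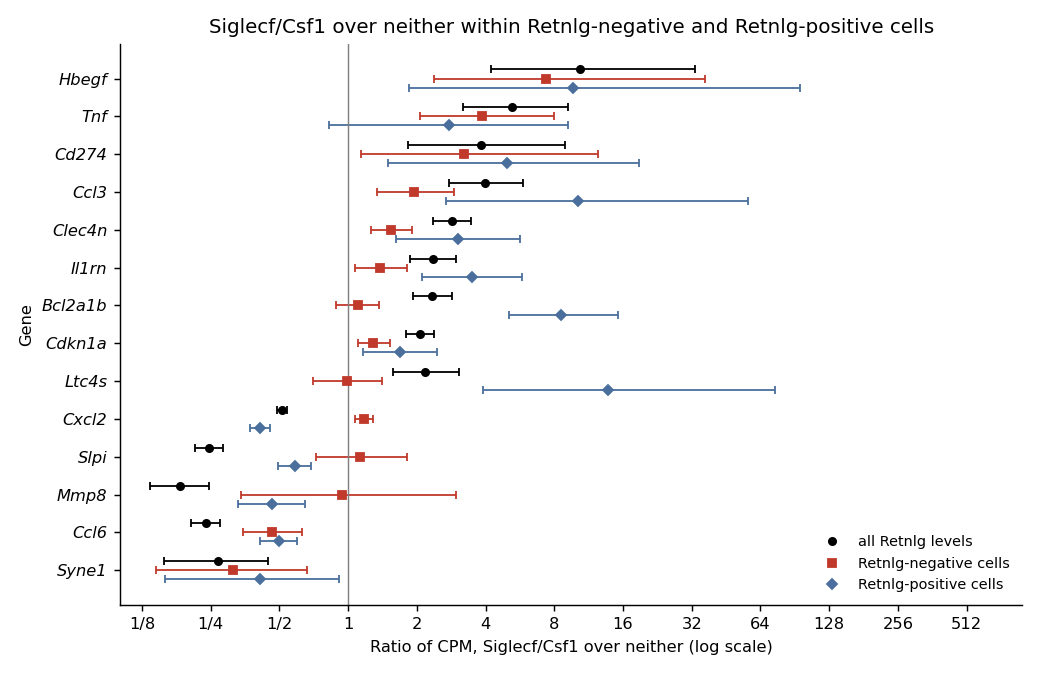
Ratio of CPM, Siglecf/Csf1 neutrophils over neutrophils with neither, in marker-free gated neutrophils of the injured library for 14 genes on a log axis; circles are all cells, squares Retnlg-negative cells (194 against 95) and diamonds Retnlg-positive cells (44 against 113), with exact 95% intervals. Hbegf, Tnf and Cd274 lay above 1 in both subsets, with an interval that included 1 for Tnf in Retnlg-positive cells, while Bcl2a1b and Ltc4s lay near 1 in Retnlg-negative cells and above 1 in Retnlg-positive cells.

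The control library held few cells for a comparison. After cells with markers of other types were left out, 21 of its 29 Siglecf/Csf1 neutrophils remained, and 16 of its 20 Siglecf UMIs lay in the cells removed. Alveolar macrophage markers summed to 1249 UMIs in the 29 cells, 547 of them in 1 cell. Of the 29, 21 had exactly 1 UMI of the pair. In marker-free cells Csf1, which chose the cells in both libraries, was at 1244 CPM in Siglecf/Csf1 neutrophils of the injured library, against 389 in those of the control library, given as a description. Retnlg was found in 90.5% of the 21 control Siglecf/Csf1 neutrophils and in 90.0% of the 80 control neutrophils with neither, so the gap in the share of Retnlg-positive cells seen in the injured library was not seen among these cells. The level of Retnlg did differ in the same direction as in the injured library. It was at 2208 CPM (125 UMIs) in the 21 cells, against 6089 (1279 UMIs) in the 80 with neither.

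Between the libraries, marker-free Siglecf/Csf1 neutrophils differed more than 5-fold in several genes. Clec4n was at 937 CPM in the injured library, against 70.7 in the control library (13.3-fold higher, 5.15 to 48.9, from 4 control UMIs), and Cdkn1a at 1370, against 230 (5.97-fold higher, 3.47 to 11.3). Xbp1 was 5.50-fold higher (2.64 to 13.8) and Bcl2a1b 4.82-fold higher (2.52 to 10.6) in the injured library. Fcgr2b was at 354 CPM in the injured library and at 0 in the control library, at least 6.68-fold higher when 3 UMIs are allowed for the control sum, and Cish was at least 5.37-fold higher on the same basis. In the other direction, Slpi was 9.74-fold lower (8.19 to 11.6), Ccl6 4.45-fold lower (3.53 to 5.58) and Il1b 2.54-fold lower (2.40 to 2.69) in Siglecf/Csf1 neutrophils of the injured library.

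Neutrophils with neither shared part of this difference between libraries. Among them Cdkn1a was at 663 CPM in the injured library, against 80.9 in the control library (8.19-fold higher, 5.03 to 14.3), and Xbp1 was 3.91-fold higher (2.63 to 6.02). Clec4n was 4.94-fold higher (2.85 to 9.27) and Slpi 1.97-fold lower (1.79 to 2.17) in the injured library. Fcgr2b was 9.78-fold higher there (3.19 to 48.8, from 3 control UMIs) and Cish 22.9-fold higher (3.91 to 923, from 1 control UMI). The differences in Fcgr2b and Cish were thus not particular to Siglecf/Csf1 neutrophils. Bcl2a1b was 2.47-fold higher (1.64 to 3.85) and Il1b 1.68-fold lower (1.62 to 1.75). For Ccl6, 1.06-fold lower, the interval of 0.938 to 1.19 included 1. Retnlg was 1.98-fold lower in Siglecf/Csf1 neutrophils of the injured library (1.62 to 2.40), and 1.52-fold higher in its neutrophils with neither (1.43 to 1.63), each against the control library. Any difference between the libraries in animals, preparation or depth cannot be told apart from the condition.

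Because cells were chosen for a UMI of Siglecf or Csf1, every Csf1 UMI of gated neutrophils lies in Siglecf/Csf1 neutrophils, and their share of the library's transcripts of either gene is a description only. They made up 11.2% of cells and 3.13% of UMIs of the injured library, and held 743 of its 1188 Csf1 UMIs, or 62.5%. In the control library the 29 cells held 28 of 269 Csf1 UMIs, or 10.4%, and made up 1.24% of its cells. Of the 743 UMIs, 114 lay in cells with markers of other types. Siglecf was less concentrated, with 190 of 502 UMIs (37.8%) in these cells of the injured library and 20 of 839 (2.38%) in those of the control library.

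Other signals were shared with neutrophils with neither. In the injured library Siglecf/Csf1 neutrophils held 37.7% of Tnf UMIs (122 of 324), 29.5% of Il1b, 22.6% of Cxcl2, 16.8% of Ccl3 and 12.9% of Il1rn, while the 228 neutrophils with neither held 8.02% of Tnf, 33.0% of Il1b, 36.8% of Cxcl2, 3.39% of Ccl3 and 4.73% of Il1rn. In the control library Siglecf/Csf1 neutrophils held 2 of 417 Tnf UMIs, 1671 of 11136 Il1b UMIs, 7.38% of Cxcl2, 1.88% of Ccl3 and 4.43% of Il1rn. These control shares include cells with markers of other types. Of the 32 Ccl3 UMIs only 1 lay in marker-free cells, against 36 of 49 for Il1rn, 202 of 275 for Cxcl2, 1476 of 1671 for Il1b and both for Tnf. Tarm1, an activating receptor of neutrophils that was chosen after its values were seen, had 39.0% of its 1021 UMIs of the injured library in Siglecf/Csf1 neutrophils. The complement gene C3, chosen in the same way, was at 555 CPM in marker-free cells with both transcripts, against 130 in marker-free neutrophils with neither (4.26-fold higher, 3.02 to 6.06). Yet all Siglecf/Csf1 neutrophils, those with markers of other types included, held only 2.63% of the C3 UMIs of the injured library.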

How the data were processed

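Single-cell RNA (10x 3′ v3 chemistry) was measured in 2 libraries of mouse lung. The deposited values are UMI counts per gene and barcode, not normalised, made with Cell Ranger (version 4.0.0), per the file headers. The submitters' processing notes name GRCm38, mm10, featureCounts 1.6.3, STAR 2.7.2c and, for DESeq2, both 1.26.0 and 1.28.1, without saying which data each was used for. Of 32285 gene IDs, 32158 matched the GENCODE M21 annotation, from which positions were taken.

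Barcodes with at least 200 genes and at most 15% mitochondrial UMIs were kept, and neutrophils were gated as described above. UMIs were summed over each set of cells and divided by the set's total (CPM). Genes with at least 50 UMIs over both sets counted as measured. Ratios carry exact conditional Poisson 95% intervals and shares exact Clopper-Pearson intervals. PCR duplicates are removed by the UMIs, and the intervals cover counting error only. Shares were recomputed after thinning each cell to 1000 UMIs. B and T cells were those with at least 2 UMIs of Cd79a, Cd79b and Ms4a1, or of Cd3d, Cd3e and Cd3g, none of the other set, and no Csf3r or Cxcr2. A level of 0 was compared by allowing 3 UMIs for the sum. Doublets were not removed in the values reported; leaving out called doublets was an alternative (58 barcodes of the injured library, 5 of them Siglecf/Csf1 neutrophils and 4 with neither). The steps were tested on simulated data. Python 3.11.15 with numpy 2.4.6, scipy 1.17.1, pandas 2.3.3 and scikit-learn 1.9.0 was used, and edgeR 4.0.16 in R 4.3.3 gave TMM factors for the counts, with no test.

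The cells and all 31 gene lists were chosen with earlier results of these data known. Genes were named by a rule: the 15 highest and 15 lowest log2 ratios, up to 6 measured genes of each list with the largest ratios, the gate genes and every eosinophil marker. Mitochondrial, ribosomal, haemoglobin, antigen receptor and sex-linked genes and genes without a proper symbol were left out of the extremes, and some genes that the rule named are not reported here. Il1b, Cxcr4, Vegfa, Fcgr2b, Gk, Syne1, Gng2, Cdh1, Krtcap2, Anp32b, Pmf1, Matk, F10, Saa3, C3 and Tarm1 fall outside that rule and were chosen after their values were seen. The class and Retnlg splits were chosen in the same way. Alternatives changed the UMI limits, thinning, scaling, pseudocount, filter, gate and doublet treatment.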

Additional observations from a re-analysis of the deposited data

How the results depend on the processing

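The number of shares and counts recomputed was 58, of which 40 stayed within counting error or 1.5 times and 18 moved. Requiring 2 UMIs gave shares of 34.7% in the injured library and 6.30% in the control library, and thinning before membership gave 43.0% and 9.40% in the same order. Against 120 genes higher and 68 lower in Siglecf/Csf1 neutrophils, thinning after membership gave 59 higher, thinning before membership gave 36 higher and 41 lower, taking only cells with Siglecf gave 109 lower, a pseudocount of 1 CPM gave 198 higher, one of 50 gave 38 higher and 35 lower, TMM scaling gave 63 higher and 118 lower, a limit of 20 UMIs gave 255 higher, no limit gave 389 higher and 128 lower, and a 1.5-fold limit gave 529 higher and 222 lower. Of 132 named genes, 60 differed at least 2-fold, and 47 of these kept their sign under the 16 alternatives in which gene ratios were recomputed. The following log2 ratios changed sign. With cells that held markers of other types left out they were 0.89 for Apoe, -0.079 for Ccl17, -0.70 for Ccl22, 0.11 for Ccr2, -1.51 for Ctsk, 0.23 for Ctss, -0.31 for Fscn1, 0.20 for Gpnmb, -0.38 for H2-Aa, -0.52 for H2-Eb1 and -0.12 for Plet1. With thinning before membership they were 0.52 for Apoe, -1.86 for Ccl17, -1.88 for Ccl22, -0.21 for Ccr7, -0.39 for Ctsk, -1.33 for Cxcl16, -1.33 for Fscn1, -0.057 for H2-Eb1 and -1.78 for Plet1, and with thinning after membership 0.39 for Apoe and -0.19 for H2-Eb1. Among cells with Siglecf they were -0.26 for Ccl17, -0.56 for Ccl22, -0.92 for Ccr7 and -0.44 for Fscn1, and Plet1 was at -0.63 among cells with Csf1 and at -0.71 with at least 2 UMIs. Without called doublets they were -0.062 for Ccl17, -0.40 for Ccl22 and -0.47 for Fscn1. With at least 10 calprotectin UMIs they were 0.78 for Apoe and 0.74 for Gpnmb, with further macrophage genes at 0 they were 0.23 for Apoe, -0.90 for Ctsk and 0.24 for Gpnmb, and with each cell weighted the same Apoe was at 0.18. The cause was not tested. No paired analysis was possible because each group had 1 library. For the same reason no library could be left out, the spread between animals is unknown, and a UMI count of 0 in a cell at these depths does not show that a transcript was absent, so cells with neither may include cells that express Siglecf or Csf1.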
